A study of Mus musculus with 2 samples.

Results

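The kynurenine pathway genes of mouse liver were followed in 2 RNA pools from mice on a diet poor in n-3 polyunsaturated fatty acids (n-3 depletion). The members were the probe sets whose platform annotation gave a single symbol among Tdo2, Ido2, Afmid, Kmo, Kynu, Haao, Acmsd, Qprt and Aadat. This rule found 15 of the 45101 probe sets of the array, which stood for 8 of the 9 genes and for 8 of the 18193 genes named alone by at least 1 probe set. No probe set was named for Acmsd alone, so that step was not analysed here. All mice were male C57Bl/6J, 9 weeks old at the start, and ate the depleted diet, in which sunflower oil stood in for soybean oil, before the last 10 days of a 112-day feeding period. In those 10 days the DEF/FOS mice stayed on the depleted diet, with an n-6 to n-3 ratio of 127.2, and were given 0.25 g per day of fructooligosaccharides (FOS), a fibre fermented by gut bacteria, in their water. The DEF/CT mice were moved to the control diet, with a ratio of 6.9, and had no FOS. Both groups had 8 mice by the treatment protocol, and equal amounts of RNA from 4 to 8 mice were pooled by the extract protocol and put on 1 array per group. DEF/FOS livers and DEF/CT livers below mean these pools. The pools differed in the fibre and in the oil together, and these cannot be told apart. With 1 array per group no difference below has a replicate or a p-value. In whole liver RNA, fewer cells of a type and less RNA per cell cannot be told apart either.

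Most tryptophan that is not built into protein is broken down through kynurenine, and hepatocytes are the main site of this route. Tryptophan dioxygenase (Tdo2), or the indoleamine dioxygenases in other settings, opens the indole ring, and arylformamidase (Afmid) removes formate to give kynurenine. Kynurenine is hydroxylated by Kmo and cleaved by Kynu, or is turned into kynurenic acid by aminotransferases such as Aadat. Haao then opens the second ring, and its product either closes to quinolinate, which Qprt takes towards NAD, or is led by Acmsd to full oxidation.

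The promoters of these genes are shown because the pathway members lay on the same side of zero, as described below. Any part of the promoters in those differences was not tested. RefSeq windows on GRCm38.p6 were found for 7 of the 9 genes. For 4 of them the 250 bases before the annotated start lay wholly outside the gene. The windows of Afmid, Haao and Aadat did not, so matches in the Haao and Aadat windows may lie inside the annotated gene. The windows of Tdo2 (chr3:81975729-81975978, minus strand), Kmo (chr1:175631943-175632192, plus strand) and Qprt (chr7:127122030-127122279, minus strand) are given for the entry, the branch and the NAD end of the route. Capitals mark the matches to the motifs searched.
Tdo2: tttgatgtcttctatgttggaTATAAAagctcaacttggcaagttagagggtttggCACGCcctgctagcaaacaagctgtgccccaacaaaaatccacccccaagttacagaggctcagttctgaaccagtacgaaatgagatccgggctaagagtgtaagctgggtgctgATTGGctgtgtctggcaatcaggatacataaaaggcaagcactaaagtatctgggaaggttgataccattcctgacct
Kmo: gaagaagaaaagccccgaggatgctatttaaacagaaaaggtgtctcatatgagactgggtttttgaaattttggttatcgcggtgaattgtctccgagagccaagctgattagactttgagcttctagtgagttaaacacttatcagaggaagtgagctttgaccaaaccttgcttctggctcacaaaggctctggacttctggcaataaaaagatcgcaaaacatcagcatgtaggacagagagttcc
Qprt: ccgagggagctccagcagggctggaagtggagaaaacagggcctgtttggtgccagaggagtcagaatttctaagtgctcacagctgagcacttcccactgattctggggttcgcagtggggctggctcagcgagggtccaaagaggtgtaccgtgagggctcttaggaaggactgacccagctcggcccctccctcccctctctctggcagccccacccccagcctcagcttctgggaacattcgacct
The motifs were searched on both strands and none overlapped another. The matches are of sequence alone, and whether any of them acts in a promoter was not tested. A match to the TATA box motif, TATAAA, stood 229 to 224 bases before the start in the Tdo2 window. Of all 32851 windows of this length, 12.4% held one. The aryl hydrocarbon receptor core, GCGTG, was read on the other strand of the Tdo2 window at 194 to 190 bases and on the gene's strand of the Haao window at 137 to 133 bases, against a share of 28.2% of all windows. The CCAAT box was read on the other strand of the Tdo2 window at 78 to 74 bases, and 33.8% of all windows held it. The glucocorticoid receptor core, AGAACA, was read on the other strand of the Haao window at 164 to 159 bases and was found in 16.1% of all windows. The HNF1 core, GTTAAT, was read on the other strand of the same window at 41 to 36 bases and was found in 6.43% of all windows. The HNF4 core, CAAAGTCC, was read on the other strand of the Aadat window at 71 to 64 bases and was found in 1.20% of all windows. The C/EBP site, TTGCNNAA, was in no member's window and in 9.56% of all windows. The Kmo, Qprt, Afmid and Acmsd windows held no match to any of these motifs.

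Values are MAS5 signals, linear intensities with the same trimmed mean, 100.00, on each array. Differences are log2 DEF/FOS minus log2 DEF/CT, centred on their median above a signal floor of 19.4. This floor is the median mean signal of the array and not a detection call. The brightest probe set stands for a gene. Above the floor there were 11163 genes, with a median difference of 0.00. The SD between probe sets of 1 gene was taken as the technical spread, and it was 0.23 at signals above 235.5, 0.32 from 84.3 to 235.5, 0.41 from 37.4 to 84.3 and 0.56 from 19.4 to 37.4. It leaves out the spread between mice and between arrays.

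Kynurenine pathway genes were slightly lower in DEF/FOS livers than in DEF/CT livers. All 8 measured genes had negative differences, from -0.62 for the kynureninase Kynu to -0.03 for Qprt. All 14 member probe sets above the floor were negative, but several of them read the same gene. The members were chosen with earlier results of these data known, so their shared sign is a description only. With centring on all probe sets, or with no floor, 7 of the 8 genes were negative. The median over the 8 genes was -0.14. Among all genes above the floor, 50% had negative differences. Among the 3578 genes with signals above 235.5, the range that held 7 of the 8 members, the median was 0.02 and 45.9% were negative. Most of the member differences were small. At a fold of 1.5, 1 member was lower and 0 were higher, where 7.82% of all genes were lower and 6.75% higher. At a log2 difference of at least 0.322 in size, the mark for a smaller shift used below, 2 members, Kynu and Aadat, were lower and 0 higher, where 18.8% of all genes were lower and 17.5% higher. None reached 2-fold, which 2.19% of all genes did downwards and 1.74% upwards, so that 44.2% of these were upward, or 55.3% with centring on all probe sets and 54.2% with quantile normalization. By the probe set that stands for each gene, the difference exceeded the SD between probe sets for 3 genes, Kynu, Aadat and Haao. It was more than 2 times that SD for 1 of them, Kynu. The other Tdo2 probe sets, described below, also passed 2 times the SD. With the median over probe sets, 3 members were lower by at least 0.322.

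**Figure D1:**
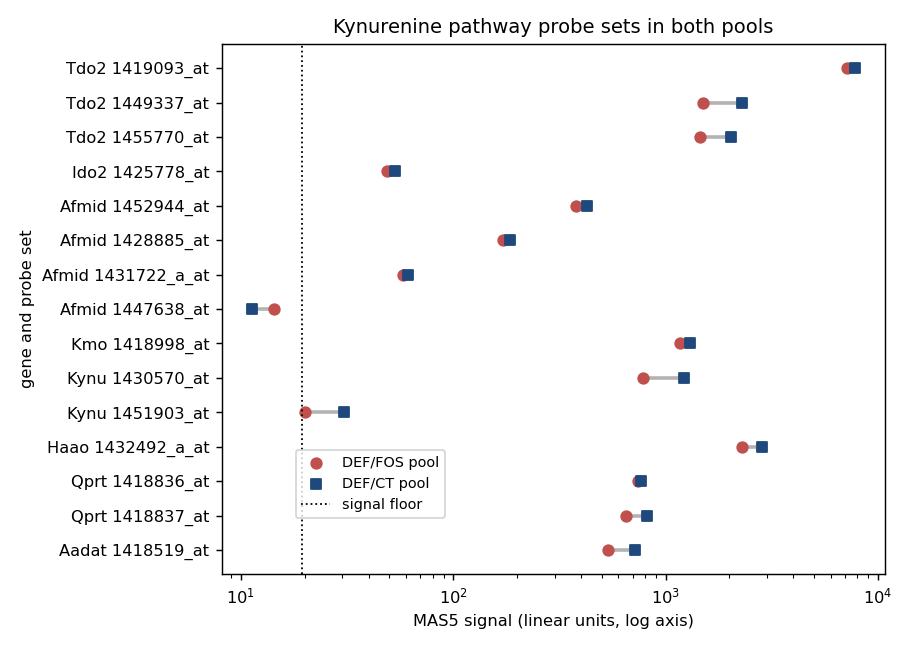
MAS5 signal (log axis) of each of the 15 member probe sets in DEF/FOS livers (circles) and DEF/CT livers (squares), with the signal floor of 19.4 as a dotted line and 1 array per pool. The circle lies left of the square in the 14 probe sets above the floor, and the widest gaps are those of Kynu and of the Tdo2 probe sets 1449337_at and 1455770_at.

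At the entry of the pathway, Tdo2 was lower in DEF/FOS livers in all of its 3 probe sets, but by unequal amounts. Its brightest probe set, 1419093_at, had a signal of 7144 in DEF/FOS livers against 7765 in DEF/CT livers, a difference of -0.10, or 1.08-fold lower. The pools lay close together there, at 0.46 times the SD between probe sets. Among all genes with signals from 3420 to 15853, where this probe set lay, the 25th percentile was -0.16 and the 75th was 0.035. The second, 1449337_at, had 1507 in DEF/FOS livers against 2288 in DEF/CT livers, a difference of -0.59. The third, 1455770_at, had 1459 in DEF/FOS livers against 2026 in DEF/CT livers, a difference of -0.46. These 2 probe sets lay 2.59 and 2.02 times the SD below zero, so the size of the Tdo2 difference depends on the probe set that stands for the gene. Taking the median over its probe sets gives -0.46.

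Ido2, an indoleamine dioxygenase of liver and kidney that opens the same ring, had a signal of 48.7 in DEF/FOS livers against 53.0 in DEF/CT livers. This difference of -0.11 was 0.27 times the SD between probe sets at that signal. Ido1, the interferon-induced indoleamine dioxygenase, is not a member and lay below the floor in both pools, at 8.7 in DEF/FOS livers against 18.1 in DEF/CT livers, where signals have no order.

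Afmid, the formamidase of the second step, differed little by any probe set. The brightest, 1452944_at, had a signal of 379.6 in DEF/FOS livers against 424.7 in DEF/CT livers, a difference of -0.15. Its next probe sets, 1428885_at and 1431722_a_at, differed by -0.11 and -0.07. The fourth, 1447638_at, lay below the floor in both pools, at 14.3 in DEF/FOS livers against 11.3 in DEF/CT livers, and is given no order.

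Kynurenine stands at a branch, and the genes of its branches differed by unequal amounts. Kmo, the mitochondrial hydroxylase that makes 3-hydroxykynurenine, had a signal of 1175 in DEF/FOS livers against 1299 in DEF/CT livers. This was a difference of -0.13, within the SD between probe sets. Kynu, the pyridoxal phosphate enzyme that splits off alanine, had 782.6 in DEF/FOS livers against 1216 in DEF/CT livers, a difference of -0.62, or 1.54-fold lower. It was 2.74 times the SD between probe sets, and 7.06% of all genes, or 1.73% of those with signals above 235.5, had differences as low or lower. The other Kynu probe set, 1451903_at, had 20.1 in DEF/FOS livers against 30.6 in DEF/CT livers, a difference of -0.60 close to the floor. Both probe sets of Kynu gave nearly the same difference at very unlike signals, but that of 1451903_at was only 1.05 times the SD at its signal. Kynu minus Kmo was -0.49 on the log2 scale.

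Aadat, the aminotransferase that turns kynurenine into kynurenic acid and also acts on 2-aminoadipate of lysine breakdown, had a signal of 537.4 in DEF/FOS livers against 721.7 in DEF/CT livers. The difference of -0.41, or 1.33-fold lower, was 1.81 times the SD between probe sets. Of the genes with signals above 235.5, 5.53% had differences as low or lower. The other enzymes that can make kynurenic acid had smaller differences. Kyat3 had 2094 in DEF/FOS livers against 2065 in DEF/CT livers, a difference of 0.04. Got2, the mitochondrial aspartate aminotransferase, had a difference of 0.02 and Kyat1 one of -0.22, though their probe sets differed in sign.

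The last steps lead towards quinolinate and NAD. Haao, the iron dioxygenase that opens the ring of 3-hydroxyanthranilate, had a signal of 2280 in DEF/FOS livers against 2830 in DEF/CT livers. Its difference of -0.30, or 1.23-fold lower, was 1.31 times the SD between probe sets, and 10.5% of genes with signals above 235.5 were as low or lower. Qprt, which joins quinolinate to phosphoribose, had 742.1 in DEF/FOS livers against 767.7 in DEF/CT livers by its brighter probe set, 1418836_at, a difference of -0.03. By its other probe set, 1418837_at, it had 649.1 in DEF/FOS livers against 819.4 in DEF/CT livers, a difference of -0.32. The brighter probe set lay at 0.15 and the other at 1.42 times the SD, and with the differences centred on all probe sets, or with no floor, the Qprt difference was 0.02.

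**Figure D2:**
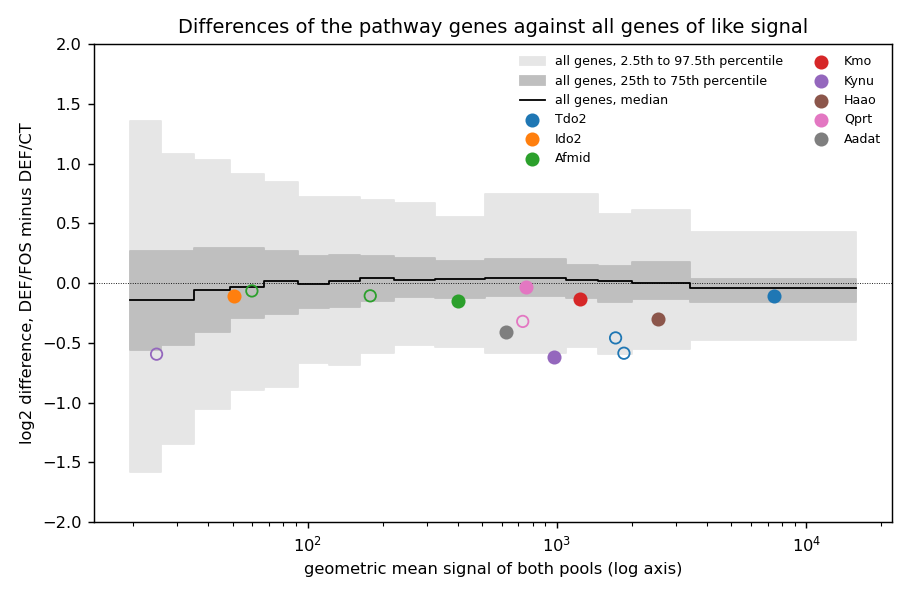
Log2 difference, DEF/FOS minus DEF/CT, against the geometric mean signal of both pools (log axis). Filled circles are the probe set that stands for each member, open circles its other probe sets above the floor, and the grey bands are percentiles of all 11163 genes in bins of signal. The members lie below zero, with Kynu at -0.62 the lowest filled circle and Qprt at -0.03 the highest.

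Related genes were taken from lists that were chosen with earlier results of these data known, and they are described by counts and medians. For the counts of every list, 18.8% of all genes were lower and 17.5% higher by at least 0.322. Genes of tryptophan and aromatic amino acid transport had a median difference of -0.17 over 7 genes above the floor, of which 3 were lower by at least 0.322 and 0 higher by as much in DEF/FOS livers. Slc43a1, a transporter of large neutral amino acids, had a signal of 19.1 in DEF/FOS livers, just below the floor, and 57.7 in DEF/CT livers, at least 2.94-fold lower. Slc6a19 had 20.7 in DEF/FOS livers against 27.4 in DEF/CT livers, and Slc7a8 differed by -0.37, both close to the floor. In the 2 lowest bins of signal, where these 3 genes lay, the 25th percentile of all genes was -0.56 and -0.52, already past that mark.

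The serotonin and indole branch had positive differences in 5 of its 6 genes above the floor. The median was 0.12, with 2 higher by at least 0.322 and 0 lower by as much in DEF/FOS livers. The aldehyde oxidase Aox1 had a signal of 1148 in DEF/FOS livers against 487.6 in DEF/CT livers, 2.38-fold higher. Maoa, which oxidises serotonin, had 148.2 in DEF/FOS livers against 113.5 in DEF/CT livers, a difference of 0.40. Ddc, the decarboxylase that makes serotonin and tryptamine, differed by 0.13. The route by which the carbon skeleton is oxidised through glutaryl-CoA had a median of -0.06 over 9 genes. In it Dhtkd1, which acts on 2-oxoadipate, the keto acid that Aadat makes, had 218.8 in DEF/FOS livers against 414.8 in DEF/CT livers, 1.88-fold lower. Hadh differed by 0.27 and Dlst by 0.24, although the probe sets of Dlst differed in sign. Gcdh, the glutaryl-CoA dehydrogenase, differed by -0.12 and Aldh8a1, the aldehyde dehydrogenase that follows Acmsd, by -0.23 with disagreeing probe sets.

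In NAD synthesis and salvage, 4 of 10 genes above the floor were higher by at least 0.322 in DEF/FOS livers and 0 lower by as much, where 17.5% of all genes were that much higher. The median was 0.14. A further 5 had small positive differences, from 0.06 for Naprt to 0.15 for Nadk, and of these Nmrk1 and Nadk2 had probe sets that went both ways. Nadsyn1, which amidates the NAD precursor that the Qprt branch supplies, had a signal of 137.4 in DEF/FOS livers against 98.3 in DEF/CT livers, a difference of 0.50. The nucleotidase Nt5e had 66.5 in DEF/FOS livers against 41.4 in DEF/CT livers, 1.62-fold higher, and the phosphorylase Pnp differed by 0.39. Nampt, which recycles nicotinamide, differed by 0.36 although its probe sets differed in sign, and Naprt starts NAD synthesis from nicotinic acid. Genes that use NAD or nicotinamide went both ways, with a median of -0.04 over 8 genes. Nnmt, which methylates nicotinamide, had 328.8 in DEF/FOS livers against 606.4 in DEF/CT livers, 1.83-fold lower. Aox3, an aldehyde oxidase, differed by -0.53, and Aox1, described above, is counted in this list too.

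Formate released by Afmid enters one-carbon metabolism. In that list 4 of 6 genes were lower by at least 0.322 in DEF/FOS livers, with 0 higher by as much. Of all genes, 18.8% were that much lower and 17.5% that much higher. The median was -0.52, but -0.26 with the floor at the 75th percentile and also without _x_at, _s_at and _a_at probe sets. Mthfd2 had a signal of 20.1 in DEF/FOS livers against 50.3 in DEF/CT livers, 2.48-fold lower, and Mthfd1l had 18.4 and 34.6 in the same order, at least 1.76-fold lower. Both of these mitochondrial folate enzymes were near the floor, in bins of signal where the 25th percentile of all genes was -0.52 and -0.56. Aldh1l1, the formyl-folate dehydrogenase of hepatocytes, had 2591 in DEF/FOS livers against 3856 in DEF/CT livers, a difference of -0.56. For the cofactor of Kynu and Aadat only 2 genes lay above the floor, with differences of -0.05 for Pdxk and 0.26 for Alpl.

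**Figure D3:**
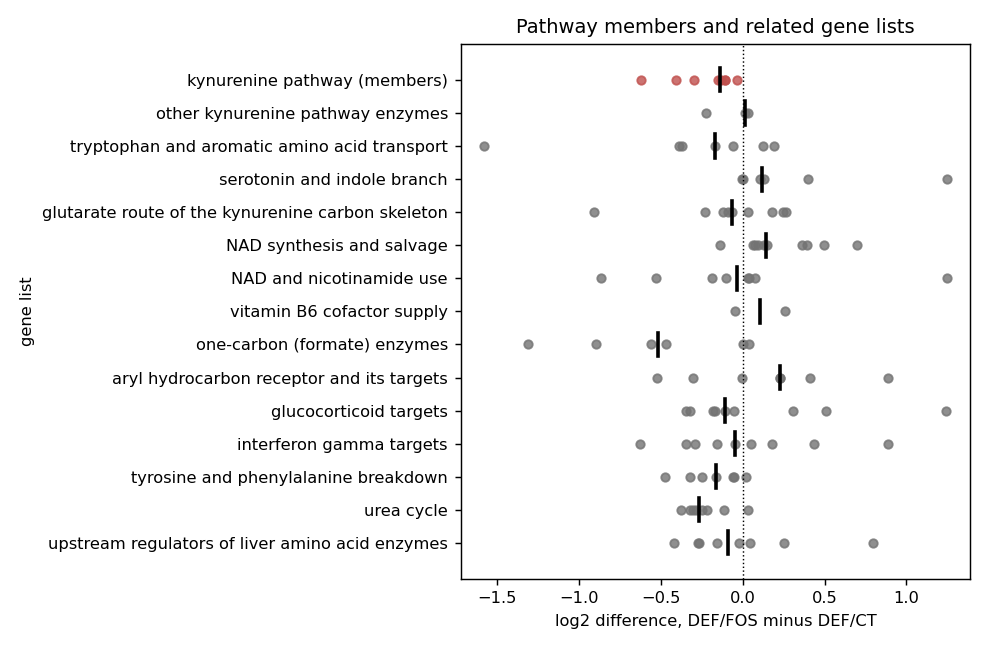
Log2 difference, DEF/FOS minus DEF/CT, of each gene above the floor (points) in the kynurenine pathway (top row) and in each related list, with the median of each list as a black bar. The pathway genes all lie below zero with a median of -0.14, the urea cycle has a median of -0.27, and NAD synthesis and salvage has a median of 0.14.

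Kynurenine and kynurenic acid are known ligands of the aryl hydrocarbon receptor. Its gene, Ahr, had a signal of 465.7 in DEF/FOS livers against 254.4 in DEF/CT livers, 1.85-fold higher, although its probe sets differed in sign. Cyp1a2, a liver cytochrome P450 that it induces, had 1718 in DEF/FOS livers against 2491 in DEF/CT livers, a difference of -0.52, and Nqo1 differed by 0.41. The 7 genes of this list above the floor went both ways, 3 down and 4 up, with a median of 0.23 that was 0.05 with no floor, 0.09 with the floor at the 75th percentile and 0.10 with an offset of 32. Tdo2 is a textbook glucocorticoid-induced gene, as is the tyrosine aminotransferase Tat. Tat had 3338 in DEF/FOS livers against 3493 in DEF/CT livers, a difference of -0.05, while Fkbp5, a chaperone that dampens the glucocorticoid receptor, had 253.8 and 108.6 in the same order, 2.36-fold higher. The kinase Sgk1 differed by 0.51 and the gluconeogenic enzyme Pck1 by -0.35. The list of glucocorticoid targets, which also holds the receptor gene Nr3c1, had a median of -0.11 over 9 genes.

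Interferon gamma targets, which are known to move with Ido1, had a median of -0.05 over 9 genes, with 2 lower and 2 higher by at least 0.322 in DEF/FOS livers. The chemokine Cxcl10 differed by 0.89, the guanylate-binding protein Gbp2 by -0.63 with disagreeing probe sets, and the GTPase Igtp by 0.44. Among 8 regulators of liver amino acid enzymes the median was -0.09. Cebpb had a signal of 919.3 in DEF/FOS livers against 534.1 in DEF/CT livers, 1.74-fold higher. Ppara, a nuclear receptor activated by fatty acids, differed by -0.42 and Klf15, a fasting-induced factor that drives amino acid breakdown, by -0.27.

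Other amino acid breakdown routes of hepatocytes were set beside the kynurenine genes. Among all genes above the floor, 50% had negative differences, as had 45.9% of those with signals above 235.5. At signals from 3420 to 15853, where several genes of these routes lay, the median of all genes was -0.04 and the 75th percentile 0.035. In tyrosine and phenylalanine breakdown 6 of 7 genes had negative differences, with a median of -0.16 and 1 gene lower by at least 0.322 in DEF/FOS livers. Fah, the last enzyme of that route, had a signal of 3649 in DEF/FOS livers against 5130 in DEF/CT livers, a difference of -0.48. Gstz1 differed by -0.320, just short of that mark, and Hgd by -0.25. In the urea cycle 7 of 8 genes had negative differences, with a median of -0.27 and 2 genes lower by at least 0.322. The ornithine carrier Slc25a15 had 1989 in DEF/FOS livers against 2604 in DEF/CT livers, a difference of -0.37, Ass1 differed by -0.323 and Asl by -0.31. The medians of the 3 routes were not tested against each other.

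Markers of the liver's cell types were read on the same arrays. Hepatocyte markers had a median difference of -0.03 over 8 measured genes, and 5 were negative. Their summed signal was 62368 in DEF/FOS livers against 65160 in DEF/CT livers, and the list shares Cps1 and Ass1 with the urea cycle. Macrophages also express Kmo and Kynu. The median over the markers of Kupffer cells and macrophages was 0.23. Of these 12 markers 9 were positive, where 50% of all genes above the floor were negative. Their summed signal was 4726 in DEF/FOS livers against 4038 in DEF/CT livers. Of the skeletal muscle markers, 11 of 11 were at least 2-fold lower in DEF/FOS livers, where 2.19% of all genes were. Their summed signal was 157.4 in DEF/FOS livers against 2768 in DEF/CT livers. Of these muscle markers, 7 lay below the floor in DEF/FOS livers against 0 in DEF/CT livers. Neutrophil markers had a summed signal of 315.6 in DEF/FOS livers against 159.6 in DEF/CT livers over 7 measured genes, which include signals below the floor. Of these, S100a8 had 146.6 in DEF/FOS livers against 33.8 in DEF/CT livers and S100a9 had 109.6 in DEF/FOS livers against 35.1 in DEF/CT livers. Ngp differed by 0.10, Elane by -0.30, and Camp, Ltf and Mpo had means below the floor. B and plasma cell markers had a summed signal of 355.0 in DEF/FOS livers against 1010 in DEF/CT livers over 5 genes, of which Ighm alone had 243.5 in DEF/FOS livers against 808.8 in DEF/CT livers, with probe sets that differed from each other in sign. These marker genes are named after their values were seen. Median differences were 0.06 for 6 endothelial markers, -0.18 for 5 stellate cell and fibroblast markers, 0.51 for 3 cholangiocyte markers and -0.39 for 2 T and NK cell markers above the floor, and 1 of 5 kidney markers lay above it. No marker in these lists had a signal of 0. The part of these cell types in the member differences was not tested. With the differences centred on the hepatocyte markers, the median of the members was -0.11 and Kynu differed by -0.59. Without the skeletal muscle markers they were -0.14 and -0.62. Leaving those markers out changes only the centring and no member signal, so it cannot show what muscle RNA does to the members.

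**Figure D4:**
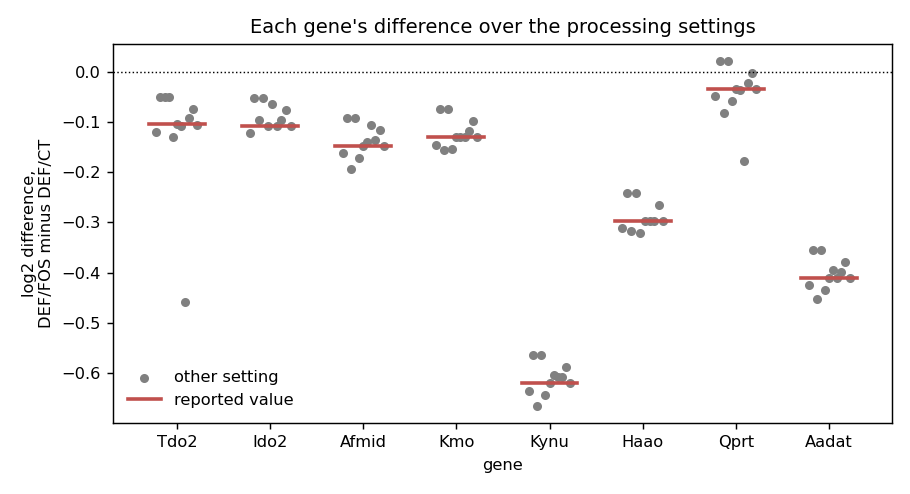
Log2 difference, DEF/FOS minus DEF/CT, of each member gene as reported (red bars) and in the other processing settings (grey points). Kynu lies between -0.67 and -0.57 throughout, Tdo2 drops to -0.46 when the median over its probe sets is taken, and Qprt crosses zero.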

How the data were processed

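Total liver RNA was pooled per group and hybridised to 1 Affymetrix GeneChip array per pool, per the labels' protocols. The authors deposited signal intensities, 1 per probe set and array, and the submitters' processing notes name MAS5 and GCOS with no version. The table held 45101 probe sets, of which 64 were array controls, had a trimmed mean of 100.00 on both arrays with 2% left out at each end, and gave no detection calls or background values. Pearson's r of the log2 signals was 0.967 across probe sets above the floor, which are not independent replicates. Of the probe sets that are not controls, 34945 had 1 gene symbol in the platform annotation, 932 had several and 9160 were not listed there, and no gene was named from those. The Entrez identifier matched the RefSeq table of GRCm38.p6 for 34741 and 0 symbols changed.

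The log2 signals were subtracted, DEF/FOS minus DEF/CT, with no offset, and centred by -0.01 (the median above the floor). Python 3.11.15, pandas 2.3.3 and NumPy 2.4.6 were used, and the procedure was tested on simulated data. The simulated differences were larger than those of the members, and the noise was below the SD between probe sets. Recovery of differences as small as the members' was not tested. With 1 array per group no test could be run, and the number of arrays limits the precision. Signals under the floor in 1 pool were replaced by the floor for the fold, which is then printed as a lower bound. All members were named, with up to 3 genes of largest absolute difference per related list and the direct neighbours of the pathway. No gene was sought for a pattern like a member's, because 2 arrays give a single difference. The members and lists were chosen with earlier results of these data known. Other choices of centring, scaling, floor, offset and probe sets were tried.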

Additional observations from a re-analysis of the deposited data

How the results depend on the processing

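The member differences were recomputed in 9 other settings planned at the start and in 2 chosen after seeing the data, centring on the hepatocyte markers and leaving out the skeletal muscle markers. Leaving out a replicate was not possible with 1 array per group. No paired analysis was possible because each group is a single array. Tdo2, Ido2, Afmid, Kmo, Kynu, Haao and Aadat had negative differences in every setting that gave a value. Haao had no probe set left without _x_at, _s_at and _a_at probe sets, and Ido2 lay below the floor at the 75th percentile. Qprt was 0.02 with centring on all probe sets and with no floor, and negative in the other 9. Tdo2 was -0.46 with the median over its probe sets. The median of the members ran from -0.24 to -0.08. At 1.5-fold, 0 members were lower with centring on all probe sets and with no floor, where Kynu was -0.57 in both, and 1 was lower in the other settings. The vitamin B6 list, with few genes, had a median of -0.85 without _x_at, _s_at and _a_at probe sets. Its cause was not tested. Over the settings the median ran from 0.05 to 0.28 for the aryl hydrocarbon receptor list, from -0.54 to -0.26 for one-carbon enzymes, from 0.11 to 0.28 for NAD synthesis, from 0.08 to 0.17 for the serotonin branch, from -0.28 to -0.06 for transport, from -0.16 to -0.05 for glucocorticoid targets, from -0.29 to -0.21 for the urea cycle and from -0.18 to -0.11 for tyrosine breakdown. The medians of the other kynurenine enzymes, NAD use, vitamin B6 and interferon lists changed sign in some settings.

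The counts over all genes moved with the floor, which changes how many genes enter, and with the offset, which does not. The setting with no floor also centres on all probe sets. At 1.5-fold, 3546 genes were lower and 2856 higher with no floor, 212 and 244 with the floor at the 75th percentile, and 258 and 278 with an offset of 32, against 873 and 754 as reported. At 2-fold the counts were 2322 and 1661 with no floor, 28 and 59 at the 75th percentile, and 40 and 55 with the offset, against 245 and 194. Of the genes past 2-fold, 44.2% were higher as reported, 55.3% with centring on all probe sets and 54.2% with quantile normalization. Signals at or under the floor give no order for Ido1 and for 1 Afmid probe set.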

Other observations

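The annotation traced the Tdo2 probe sets 1419093_at and 1449337_at to the same source record, and their differences were 0.48 apart on the log2 scale. Over all 596 pairs of probe sets of 1 gene that shared a record and had signals above 235.5, the median gap was 0.12, and 2.18% of pairs were at least as far apart as the Tdo2 pair. The Qprt pair, which also shared a record, was 0.29 apart, a gap that 14.8% of pairs reached.

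The SD of the differences across genes was 0.20 for the 179 genes with signals of at least 4000, the range of the brightest Tdo2 probe set, and 0.33 for the 3399 genes between 235.5 and that signal. Of 69 genes this bright that had further probe sets above 235.5, 43 had a smaller absolute difference in the brightest probe set than in the median of the others, or 62.3%. Differences spread more at lower signals, and no like share was computed for less bright genes. Whether the share belongs to high signals was therefore not tested. These values were chosen after the Tdo2 probe sets had been seen.

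Slc7a5, the large neutral amino acid transporter that carries tryptophan, is named here after its values were seen. It had a signal of 26.2 in DEF/FOS livers against 5.0 in DEF/CT livers, with a mean below the floor.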
